A study of Mus musculus with 2 samples.

Results

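Transcripts of 7 genes of meiotic double-strand break formation, Spo11, Prdm9, Mei4, Rec114, Ccdc36, Ankrd31 and Zcwpw1, were followed through the germ cells of the E15.5 ovary of the mouse fetus. The genes were taken by symbol, and all 7 were present among the 27998 genes of both count matrices. The wild-type library (WT) came from 4 pooled embryos, and the knockout library (KO) came from 2 pooled embryos homozygous for a deletion of the glucocorticoid receptor (GR), encoded by Nr3c1. The strain label of both libraries was Tg(Pou5f1-EGFP)2Mnn Nr3c1tm1.1Jda. The deletion allele was made from a floxed exon 3 with the β-actin Cre line Tmem163Tg(ACTB-cre)2Mrt, so it was constitutive and GR was missing from the somatic cells as well. OCT4-GFP positive germ cells and negative somatic cells were sorted and mixed at 60:40 before capture with a 3′ chemistry, which counts each transcript by a unique molecular identifier (UMI). With 1 library per genotype no test between genotypes was possible, and genotype, embryo pool, sort and capture cannot be told apart. Every interval given is an exact 95% interval that covers counting error only.

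SPO11 is the topoisomerase-like protein that cuts DNA to start meiotic recombination. REC114, MEI4 and IHO1, the product of Ccdc36, assemble on the chromosome axis and are needed for the cut, and ANKRD31 binds REC114. PRDM9 chooses the sites by methylating histone H3 at DNA motifs, and ZCWPW1 reads these marks. In the mouse ovary the breaks are made in fetal life, as oogonia enter meiotic prophase.

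The 5′ ends of these genes are shown first, since the members rose and fell at different steps. RefSeq promoter sequences (GRCm38.p6) were matched for 6 of the 7 members, and Spo11 had no entry. The windows of 250 bases before the start were searched on both strands for CNCCTCAG, the motif of promoters bound by STRA8, a factor of meiotic entry, for the E2F motif GCGGGAA and for the E-box CACGTG. Over all 32851 promoter windows of that length, these were present in 6.42%, 3.82% and 6.02%. Among the start nearest to the gene start of GENCODE for each of the 6 members, each motif was found in 1 member. The windows of Prdm9, Mei4 and Rec114 are given because Mei4 and Rec114 were highest in the earliest germ cells and Prdm9 in the next ones. Capitals mark a motif match, and the letters are given 5′ to 3′ on the strand of the gene.
Prdm9, chr17:15564355-15564604, minus strand: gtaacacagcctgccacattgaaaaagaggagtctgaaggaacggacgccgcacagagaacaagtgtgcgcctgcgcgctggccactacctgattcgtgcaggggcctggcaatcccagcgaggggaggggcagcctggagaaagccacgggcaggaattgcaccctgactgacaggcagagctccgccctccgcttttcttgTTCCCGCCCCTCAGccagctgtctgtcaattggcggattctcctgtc
Mei4, chr9:81863420-81863669, plus strand: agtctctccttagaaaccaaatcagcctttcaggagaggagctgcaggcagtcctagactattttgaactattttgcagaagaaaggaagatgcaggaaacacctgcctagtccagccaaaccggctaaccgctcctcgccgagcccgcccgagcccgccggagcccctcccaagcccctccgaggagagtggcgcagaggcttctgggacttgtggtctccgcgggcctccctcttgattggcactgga
Rec114, chr9:58741560-58741809, minus strand: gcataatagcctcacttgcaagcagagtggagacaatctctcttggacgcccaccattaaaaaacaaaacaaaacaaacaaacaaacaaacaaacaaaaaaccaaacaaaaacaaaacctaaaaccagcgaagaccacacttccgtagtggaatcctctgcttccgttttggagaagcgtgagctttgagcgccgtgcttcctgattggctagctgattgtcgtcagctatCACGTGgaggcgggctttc
In Prdm9 a reverse-strand E2F match began 47 bases before the start and shared 1 base with a forward CNCCTCAG match that began 41 bases before it. Rec114 held an E-box 19 bases before the start, and Mei4 held none of the 3 motifs. The RefSeq start of Rec114 lay 2405 bases inside the GENCODE gene, so its window lies within the gene interval given below. Prdm9 had another RefSeq start, 1023 bases from the GENCODE gene start, whose window held none of the motifs. A match is a description of letters and not a sign of binding.

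After filtering, 24547 cells remained, 9045 of 11430 WT barcodes and 15502 of 17829 KO barcodes. The libraries held 168483330 and 186117981 UMIs. Germ-like cells, named by markers such as Dazl, Ddx4 and Sycp3, numbered 6793 in WT and 10202 in KO, with medians of 17100 and 11317.5 UMIs per cell. All 8 germ markers were detected in at least 10% of germ-like cells in both libraries. The libraries shared 9 germ-like cell barcodes. Levels are given as counts per 1000000 UMIs of the cells named (CPM). Nr3c1 stood at 71.8 CPM in WT germ-like cells and 11.6 CPM in KO germ-like cells. Counts from a 3′ chemistry are not a check of the deleted exon 3, and where the Nr3c1 reads lie was not examined.

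Germ-like cells were divided into sub-clusters built without the 7 members and without the other break-related genes. Premeiotic-like cells (464 in WT, 1131 in KO) carried Rhox5, Dppa5a and the highest Stra8 and Rec8. They scored almost as high for meiotic entry as for premeiotic markers, and at a finer clustering a cluster of 779 cells with Rec8 and Rhox5 was named meiotic entry and 422 cells premeiotic, so the class is mixed. In first early prophase-like cells (1682 and 2905) Stra8 was lower and Sycp1 higher, and in second early prophase-like cells (1777 and 2257) Stra8 had fallen to 29.4 CPM in WT and 43.1 CPM in KO. A sub-cluster led by Myom3 (2267 and 3330) had too few stage markers for a name. Advanced prophase-like cells (77 and 16), with Sohlh1, Nobox and Lhx8, were few. The order is a working order from these markers. A prophase score, of early and advanced prophase markers minus premeiotic markers, gave Myom3-led cells a lower median than the early prophase-like cells. Lower early prophase markers also lower this score, so it cannot tell a later place from an earlier one. The median score of Myom3-led cells was -0.059 in WT and -0.015 in KO. The medians were 0.24 and 0.23 in first early prophase-like, 0.28 and 0.32 in second early prophase-like, and -1.18 and -0.99 in premeiotic-like cells. Sohlh1 was at 15.4 CPM in WT Myom3-led, 1.04 CPM in second early prophase-like and 517 CPM in advanced prophase-like cells. In KO these values were 5.01, 0.271 and 315 CPM. Stra8 was at 62.9 CPM in Myom3-led cells of WT, above second early prophase-like cells, and at 42.4 CPM in KO. At the finer clustering a cluster of 2261 cells led by Sohlh1 was named advanced prophase, with 4 of 10 markers. The place of the Myom3-led cells is uncertain. A further 456 WT and 448 KO cells formed a sub-cluster of uneven depth, with medians of 31548 and 4823.5 UMIs, and 70 and 115 cells, called somatic-marked, carried granulosa markers such as Fst and Kitl. Both stayed in the totals over germ-like cells and are not described as stages.

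The 7 genes did not share one time course. Mei4 and Rec114 were highest in premeiotic-like cells, Prdm9, Ccdc36 and Zcwpw1 in first early prophase-like cells, and Ankrd31 in second early prophase-like cells, each in both libraries. Spo11 was highest in second early prophase-like cells of WT and in Myom3-led cells of KO. In 10 bins of the prophase score, Prdm9 rose from 92.2 CPM in the lowest bin to 280 CPM in the highest in WT. Zcwpw1 rose from 675 to 1413 CPM, and Spo11, Ccdc36 and Ankrd31 were also higher in the highest bin. Mei4 fell from 21.7 to 11.7 CPM and Rec114 from 78.9 to 43.1 CPM, and KO had the same directions. The bins did not follow the working order. Over both libraries bins 2, 3 and 4 held 884, 910 and 803 Myom3-led cells. Bin 10 held 632 first early, 678 second early and 69 advanced prophase-like cells, so lower levels in the advanced cells do not show there. The falls from second early prophase-like to Myom3-led cells thus rest on the working order. Because the cells were clustered on their own transcripts, differences between sub-clusters are a description. The level plot shows each gene by library with the level in granulosa-like cells as a reference.

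**Figure D1:**
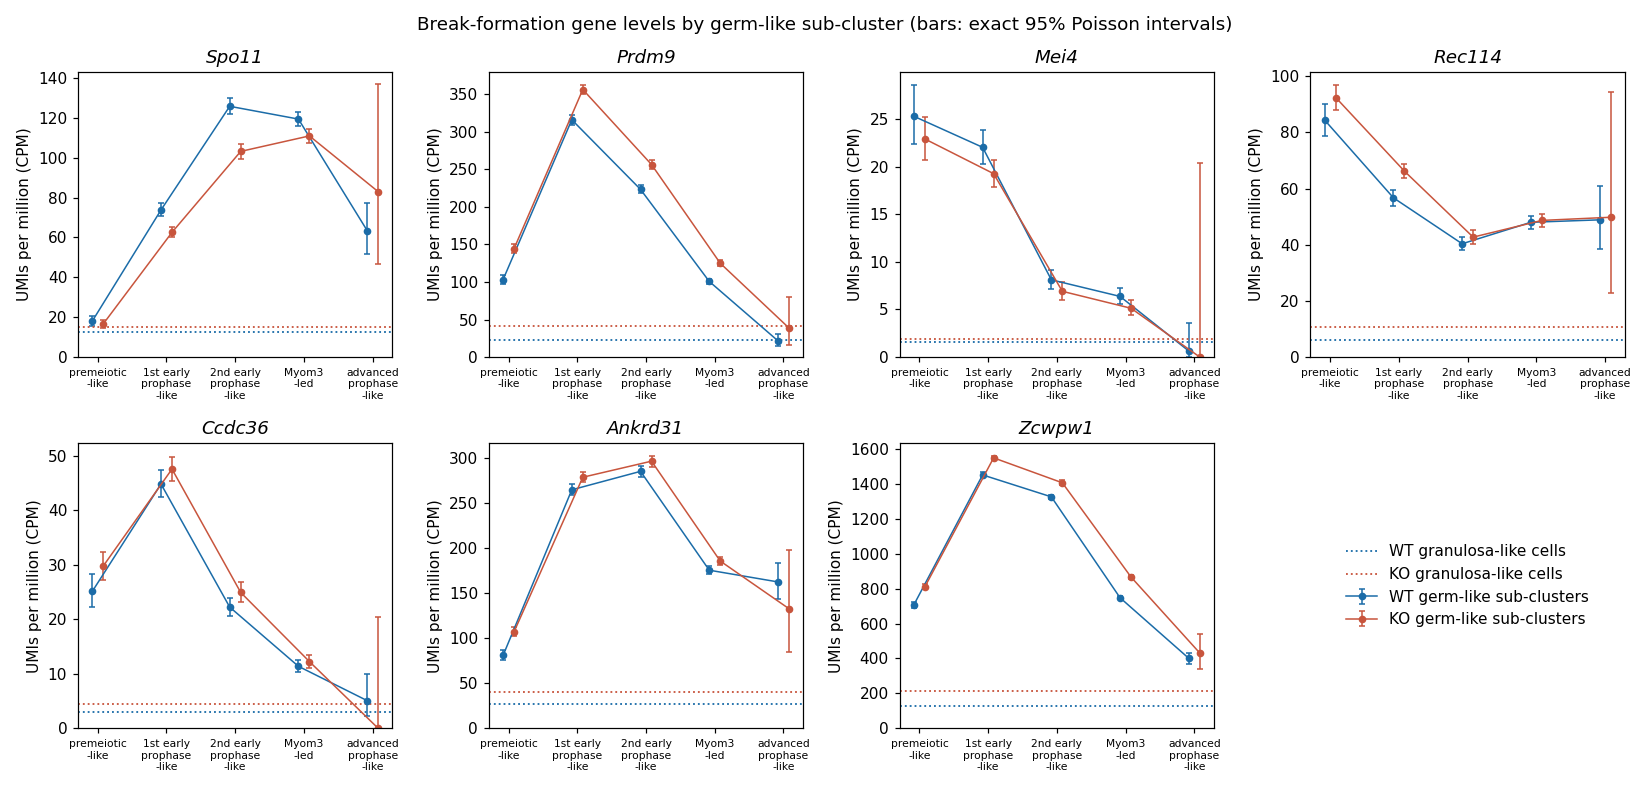
CPM (y axis) of each gene in 5 germ-like sub-clusters (x axis, working order) of WT (blue) and KO (red). Points are summed UMIs with exact 95% Poisson intervals, and dotted lines are granulosa-like cells of the same library. Mei4 and Rec114 begin high, Prdm9, Ccdc36 and Zcwpw1 are highest in the second column, and Spo11 is near its granulosa-like level in the first.

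Spo11, the catalytic subunit (ENSMUSG00000005883, GRCm38 chr2:172977700-172993576, plus strand), stood at 18.0 CPM in WT premeiotic-like cells (15.54 to 20.8, 188 UMIs). It then measured 73.8, 126 and 119 CPM in the next 3 WT sub-clusters, and 63.5 CPM in advanced prophase-like cells (51.6 to 77.2). In KO the same 5 values were 16.6, 62.6, 103, 111 and 83.0 CPM, the last from 15 UMIs. The rise from premeiotic-like to first early prophase-like cells was 2.03 on the log2 scale in WT (1.82 to 2.26) and 1.91 in KO (1.74 to 2.09), the largest step up of any member. The next step added 0.77 and 0.72. Between second early prophase-like and Myom3-led cells the log2 difference was -0.08 in WT and 0.10 in KO, and the WT value became 0.05 when cells were thinned to 3000 UMIs, so no order is read there.

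Premeiotic-like cells carried little Spo11 above the somatic reference. Granulosa-like cells, which are not known to make SPO11, held 12.5 CPM in WT (10.7 to 14.6) and 15.1 CPM in KO (13.4 to 16.9). The premeiotic-like interval of KO, 14.8 to 18.6, overlapped the latter, and that of WT lay above the former. At 3000 UMIs per cell, 5.60% of WT and 4.95% of KO premeiotic-like cells held a Spo11 UMI, against 3.31% and 2.26% of granulosa-like cells. Median depths before thinning were 23196.5 and 15736 UMIs in the premeiotic-like cells and 12668 and 8498.5 in the granulosa-like cells. The unthinned shares were 31.0% and 21.3% in premeiotic-like cells and 10.4% and 8.89% in granulosa-like cells.

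The axis proteins differed from Spo11. Mei4 (ENSMUSG00000043289, chr9:81863670-82206007, plus strand) was sparse, with 1489 UMIs in WT and 1530 in KO germ-like cells. It stood at 25.3 CPM (22.4 to 28.6) in WT premeiotic-like cells, then at 22.1, 8.12 and 6.38 CPM. In KO the 4 values were 22.9, 19.3, 6.91 and 5.13 CPM. Between the first pair of sub-clusters the log2 difference was -0.20 in WT, with an interval that included 0 (-0.41 to 0.02), and -0.25 in KO, with one that did not (-0.43 to -0.07). The fall from first to second early prophase-like cells was the steepest of any member at that step, -1.44 in WT and -1.48 in KO. Advanced prophase-like cells held 1 Mei4 UMI in WT and 0 in KO, where 3 counts would be 16.6 CPM.

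Rec114 (ENSMUSG00000074269, chr9:58652850-58743964, minus strand) fell from 84.4 CPM in WT premeiotic-like cells to 56.7 and 40.3 CPM in the early prophase-like sub-clusters. It was at 48.0 CPM in Myom3-led cells and 48.9 CPM (38.6 to 61.1) in advanced prophase-like cells. KO cells gave 92.4, 66.2, 42.7, 48.7 and 49.8 CPM. Thus Mei4 and Rec114, whose products form a complex, shared the starting point but parted afterwards, since Rec114 did not fall below 40.3 CPM in any of these 10 groups. The 3′ end of Rec114 overlaps Nptn on the opposite strand by 5106 bases. Nptn stood at 36.2 CPM in WT germ-like and 61.7 CPM in WT granulosa-like cells, whereas Rec114 stood at 50.8 and 5.91 CPM.

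Ccdc36 (ENSMUSG00000047220, chr9:108403611-108428484, minus strand) rose from 25.1 CPM in WT premeiotic-like to 44.8 CPM in first early prophase-like cells. It then fell to 22.2, 11.4 and 5.08 CPM (2.19 to 10.0, 8 UMIs). In KO the values were 29.8, 47.6, 24.9 and 12.2 CPM, with 0 UMIs in advanced prophase-like cells. The granulosa-like levels were 3.00 CPM in WT and 4.47 CPM in KO.

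Ankrd31 (ENSMUSG00000109561, chr13:96748272-96910039, plus strand) rose from 80.9 to 265 CPM at the first step in WT and from 107 to 279 CPM in KO. It was at 285 and 297 CPM in second early prophase-like cells, a log2 step of 0.11 in WT (0.06 to 0.15) and 0.09 in KO (0.05 to 0.13). Myom3-led cells had 175 and 186 CPM, and advanced prophase-like cells had 162 and 133 CPM, with intervals that overlapped those of the Myom3-led cells. Ankrd31 and Spo11 were thus late among the members in the working order. Ankrd31 had reached 92.8% of its highest WT level in first early prophase-like cells, however, and Spo11 58.7%.

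The genes that place and read the histone marks were highest together. Prdm9 (ENSMUSG00000051977, chr17:15543079-15564354, minus strand) measured 103, 316, 223, 101 and 21.6 CPM through the 5 WT sub-clusters. KO gave 145, 356, 256, 125 and 38.7 CPM, the last from 7 UMIs. The advanced prophase-like level of WT (14.9 to 30.2) included the granulosa-like level of 23.1 CPM, so Prdm9 was not above the somatic reference there. From second early prophase-like to Myom3-led cells Prdm9 dropped by 1.15 on the log2 scale in WT and by 1.04 in KO.

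Zcwpw1 (ENSMUSG00000037108, chr5:137787798-137822621, plus strand) measured 708, 1452, 1326, 748 and 401 CPM in WT and 811, 1550, 1407, 867 and 431 CPM in KO. Of the WT first early prophase-like cells, 97.9% still held a Zcwpw1 UMI at 3000 UMIs per cell, against 13.9% of granulosa-like cells. From first to second early prophase-like cells the drop was 0.13 for Zcwpw1 and 0.50 for Prdm9 in WT, so the reader gene kept more of its level than the writer gene. In advanced prophase-like cells Zcwpw1 stood 3.14-fold above its granulosa-like level in WT, with intervals of 370 to 434 CPM and 122 to 134 CPM.

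The members were counted against all genes that reached 100 UMIs in the sum of the groups compared. They changed as follows at a size limit of 0.5 on the log2 scale. At the first step 5 of the 7 were past the limit upwards in both libraries, where 15.8% of genes were in WT and 13.7% in KO. Downwards, 1 member (Rec114) passed in WT and 0 in KO, against 28.4% and 28.5% of genes. At the step to second early prophase-like cells only Spo11 passed upwards in either library (30.9% of genes in WT, 29.5% in KO). Downwards 3 passed in WT (Prdm9, Mei4 and Ccdc36) and 3 in KO (Mei4, Rec114 and Ccdc36), against 10.5% and 10.9% of genes. Prdm9 in KO (-0.47) and Rec114 in WT (-0.49) lay just short of the limit. From there to Myom3-led cells 0 members passed upwards (20.6% and 14.3% of genes), and Prdm9, Ccdc36, Ankrd31 and Zcwpw1 passed downwards in both libraries (8.35% and 9.87%). The medians of all genes at these 3 steps lay between -0.10 and 0.21.

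KO and WT germ-like cells were then compared to ask whether loss of GR went with another level of the break genes. Over all germ-like cells Spo11 was lower in KO, at 79.5 CPM against 100 CPM (log2 -0.34, -0.38 to -0.30). Prdm9 was higher, at 232 against 189 CPM (0.30, 0.27 to 0.32), as were Ccdc36 (0.27, 0.20 to 0.34), Rec114 (0.22, 0.17 to 0.26), Zcwpw1 (0.14, 0.13 to 0.15) and Ankrd31 (0.05, 0.03 to 0.08). Mei4 stood at 12.4 CPM in WT and 12.6 CPM in KO (0.03, -0.08 to 0.13). None of the 7 reached 0.5, which 7.88% of 13799 genes did in either direction, and the median of all genes was -0.05. The members lay between the 12.1 and 93.5 percentiles of all genes tested. With 1 library per genotype the spread between libraries of a genotype is unknown, so these intervals do not show a change by genotype.

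**Figure D2:**
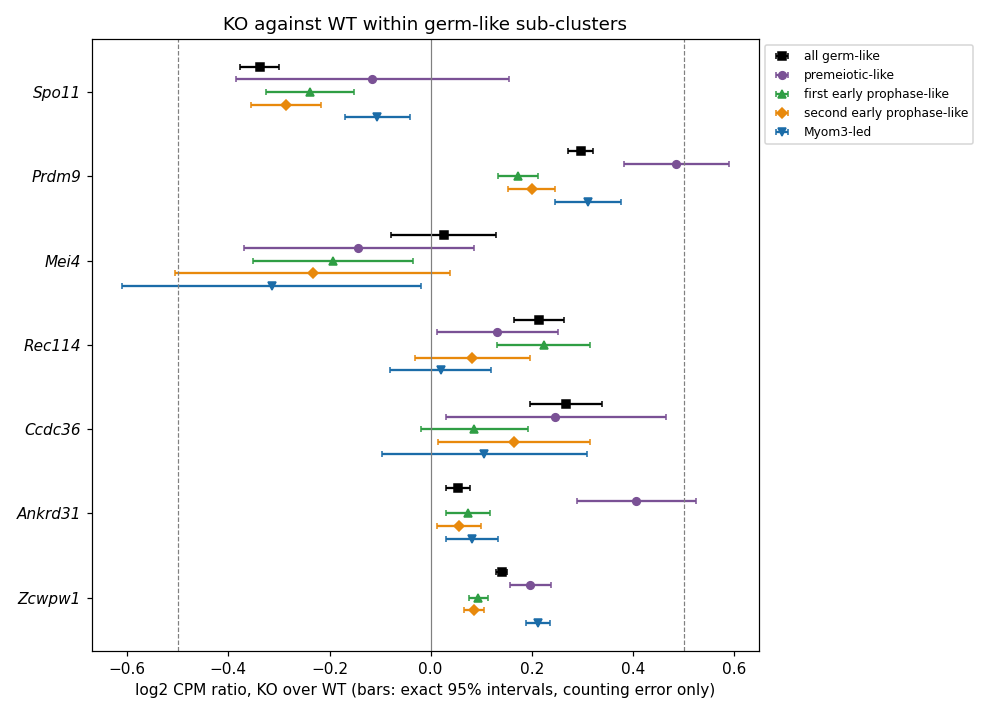
Log2 CPM ratio of KO over WT (x axis) for each gene (y axis) in all germ-like cells and in 4 sub-clusters, with exact 95% intervals for counting error. Dashed lines mark 0.5 in either direction. Spo11 lies left of 0 and Prdm9 right of 0 in all groups, and no point lies beyond a dashed line.

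Within sub-clusters the ratios differed from those over all germ-like cells. Spo11 was at -0.12 in premeiotic-like (-0.38 to 0.16), -0.24 in first early prophase-like (-0.32 to -0.15), -0.29 in second early prophase-like (-0.35 to -0.22) and -0.11 in Myom3-led cells (-0.17 to -0.04). In the uneven-depth sub-cluster it was at 115 CPM in WT and 107 CPM in KO, and in somatic-marked cells at 95.05 and 46.3 CPM (-1.04, -1.46 to -0.63). Its value over all germ-like cells was thus larger in size than in any of the 4, and moved to -0.19 when KO sub-clusters were weighted by their share of WT germ-like UMIs. The premeiotic-like cells, which carry the least Spo11, were 6.83% of WT and 11.1% of KO germ-like cells.

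Prdm9 was at 0.49 in premeiotic-like (0.38 to 0.59), 0.17 in first early prophase-like, 0.20 in second early prophase-like and 0.31 in Myom3-led cells (0.25 to 0.38). The premeiotic-like value depended on which cells were taken. It was 0.34 with the same limits on cells in both libraries, 0.56 after thinning, and 0.05 in the cells named premeiotic-like at a finer clustering. Granulosa-like cells of the KO library also held more Prdm9 than those of WT, 40.7 against 23.1 CPM. The same held for Ankrd31 (40.1 against 27.4 CPM), Zcwpw1 (212 against 128), Rec114 (10.6 against 5.91) and Ccdc36 (4.47 against 3.00). For Spo11 and Mei4 the interval of the granulosa-like ratio included 0. The part of these levels in the germ-like ratios was not tested.

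Mei4 gave another pattern. It was below 0 in each of the 4 sub-clusters, at -0.14, -0.19, -0.23 and -0.31, although the pooled ratio was 0.03. With KO sub-clusters weighted as in WT the pooled ratio became -0.23. Only the intervals of first early prophase-like (-0.35 to -0.04) and Myom3-led cells (-0.61 to -0.02) lay below 0. Without cells holding somatic markers the premeiotic-like value was -0.50, past the limit. The direction turned in first early prophase-like cells after thinning (0.10), and in second early prophase-like cells without cells holding somatic markers (0.11).

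Rec114 was at 0.13, 0.22, 0.08 and 0.02, and the last pair of intervals included 0. Weighted as in WT its pooled ratio became 0.09. Its Myom3-led value turned to -0.08 without cells holding somatic markers. Ccdc36 was at 0.25, 0.09, 0.16 and 0.11, its pooled ratio became 0.13 when weighted, and its Myom3-led value turned to -0.09 without those cells. Ankrd31 was at 0.41 in premeiotic-like cells (0.29 to 0.52, 80.9 against 107 CPM) and between 0.06 and 0.08 in the next 3. Zcwpw1 was at 0.20, 0.09, 0.09 and 0.21. In none of these 4 sub-clusters did a member reach 0.5, where 6.42%, 5.56%, 4.73% and 8.53% of genes did from premeiotic-like to Myom3-led cells. In the smaller sub-clusters, 3 values with at least 100 UMIs over both libraries were past it, but the share of all genes was not counted there. In somatic-marked cells these were Spo11 (-1.04, 144 and 76 UMIs in WT and KO) and Rec114 (1.11, 45 and 105 UMIs). In uneven-depth cells it was Mei4 (-0.56, 124 and 18 UMIs). The cells of these sub-clusters also differed in a stage marker between libraries. Stra8 was at 71.3 CPM in WT and 407 CPM in KO somatic-marked cells, and at 218 and 20.6 CPM in uneven-depth cells.

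Shares of cells with a UMI differed between full and equal depth. Spo11 was found in 74.6% of WT and 55.3% of KO germ-like cells at full depth, and in 26.3% and 22.0% at 3000 UMIs. For Prdm9 the order turned, from 80.5% and 78.5% at full depth to 38.7% and 45.8% at 3000 UMIs. Mei4 was found in 17.4% and 12.6% at full depth and in 3.05% and 3.18% at 3000 UMIs. The median in germ-like cells with a Mei4 UMI was 1 at full depth, and the highest was 5 in both libraries. In granulosa-like cells at 3000 UMIs the shares were 3.31% and 2.26% for Spo11, 4.38% and 6.58% for Prdm9, and 0.320% and 0.196% for Mei4.

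Somatic-like cells held the break transcripts at a similar proportion of the germ-like level for each gene. In WT granulosa-like cells the 7 genes stood at 11.6% to 12.8% of their germ-like CPM, median 12.3%, and the 8 germ markers at 8.96% to 13.5%. In KO granulosa-like cells the ranges were 14.7% to 19.0% and 13.7% to 18.2%. Theca-like cells gave 13.1% to 19.9% in WT and 19.7% to 27.2% in KO, and epithelia-like cells 7.70% to 14.7% and 8.74% to 13.6%. The median of the 7 was higher in KO than in WT in all 3 classes, at 17.5% against 12.3% in granulosa-like, 23.3% against 16.3% in theca-like and 13.3% against 9.77% in epithelia-like cells. At full depth up to 18 Prdm9 UMIs were found in a single WT granulosa-like cell and up to 25 in a KO one, while the median in granulosa-like cells with a UMI was 1.

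**Figure D3:**
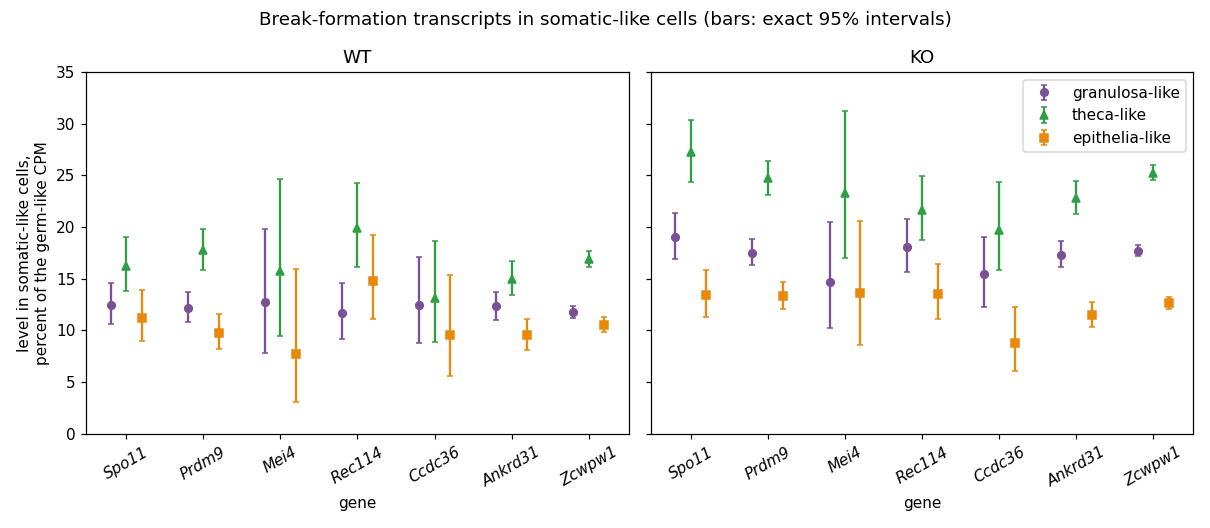
CPM of each gene (x axis) in 3 somatic-like cell classes (granulosa-like, theca-like, epithelia-like) as a percent of its germ-like CPM (y axis), with exact 95% intervals, for WT (left) and KO (right). The 7 genes lie at similar heights within a cell class, between 11.6% and 12.8% in WT granulosa-like cells.

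The wider break pathway was read from a list of 19 genes, of which 18 were in the matrices and 17 had at least 100 UMIs. The list covers partners of break formation (Mei1, Gm960), axis proteins and their remodeler (Hormad1, Hormad2, Trip13), the damage kinase Atm, end resection (Mre11a, Rad50, Nbn, Rbbp8, Exo1) and strand exchange (Dmc1, Meiob, Spata22, Brca2). Hells, Cxxc1 and Morc2b, the last with 10 UMIs, were also in it. Dmc1, Hormad1, Mei1, Meiob and Spata22 were among the markers that named the early prophase-like cells. In WT, 8 of the 17 were highest in first early prophase-like cells, 6 in second early prophase-like cells, 2 in premeiotic-like cells (Hells and Exo1) and 1 in Myom3-led cells (Trip13). The KO counts were 8, 6, 2 and 1 as well. At the first step 7 rose past the limit and 2 fell in WT (15.8% and 28.4% of all genes), and 6 rose and 2 fell in KO (13.7% and 28.5%). The markers Mei1, Dmc1, Meiob and Spata22 were among those that rose in both libraries, so these counts were in part set by the naming. At the second step 0 rose and 1 fell in WT (30.9% and 10.5% of all genes), and 1 rose and 0 fell in KO (29.5% and 10.9%). From second early prophase-like to Myom3-led cells 0 rose in either library (20.6% of all genes in WT, 14.3% in KO), and 9 fell in WT and 8 in KO (8.35% and 9.87%).

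**Figure D4:**
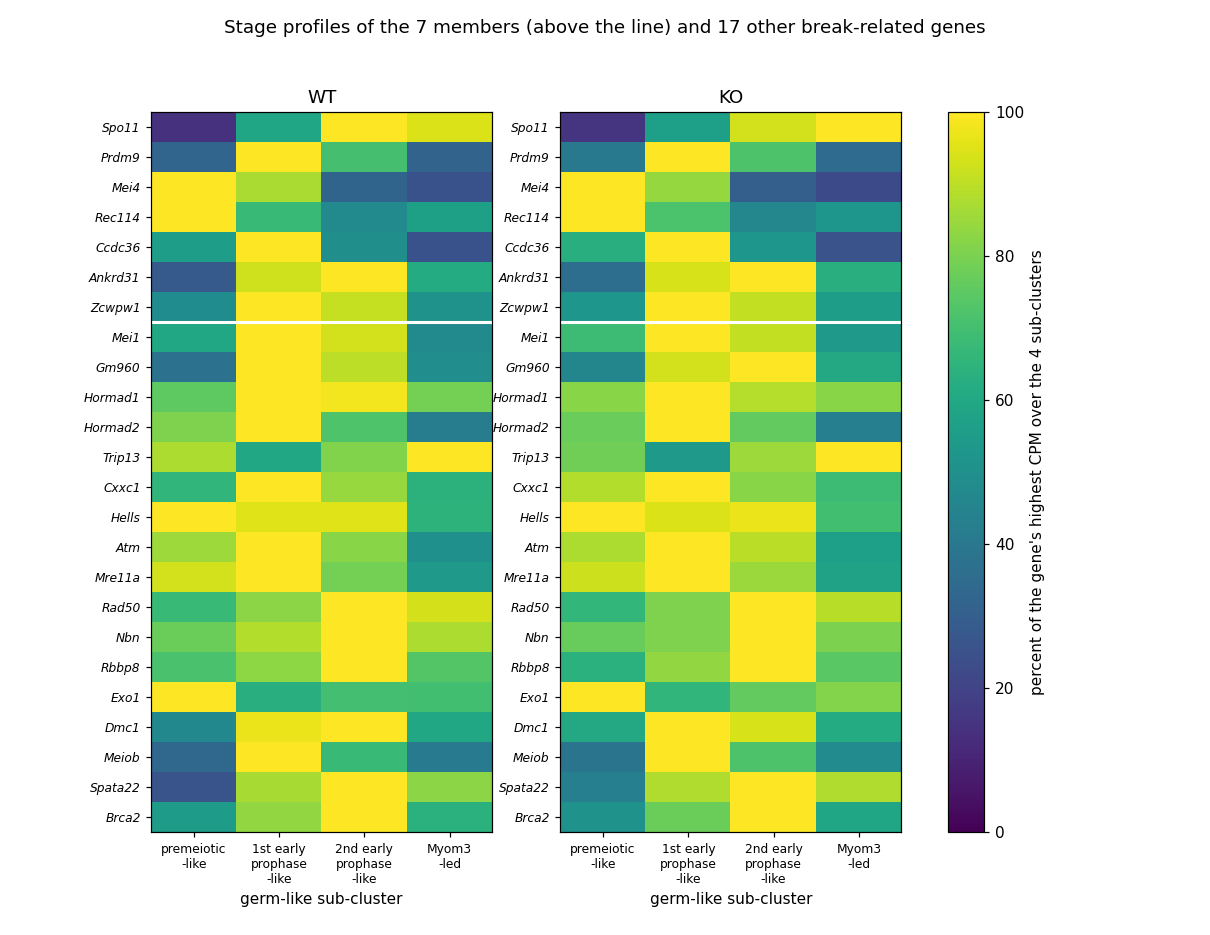
Level of the 7 members (above the white line) and 17 other break-related genes (rows) in 4 germ-like sub-clusters (columns) as a percent of the highest of the 4, for WT (left) and KO (right). The colour runs from 0 to 100 percent. Mei4 and Rec114 are brightest in the first column and Prdm9, Ccdc36 and Zcwpw1 in the second.

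Between genotypes 0 of these 17 passed 0.5 over all germ-like cells, with 13 above 0, 4 below and a median of 0.04, against 7.88% of all genes. Gm960, which encodes TOPOVIBL, the partner subunit of SPO11, was the highest, at 12.4 CPM in WT and 17.2 CPM in KO (0.47, 0.38 to 0.57). Dmc1, the meiotic strand-exchange recombinase, followed at 142 and 174 CPM (0.30, 0.27 to 0.33). Mei1, which is needed for break formation, was the lowest, at 31.4 and 27.7 CPM (-0.18, -0.25 to -0.11), and Rad50, of the resection complex, was at 319 and 314 CPM (-0.02, -0.04 to -0.0035). Spo11 and Gm960 thus lay on opposite sides of 0. Within premeiotic-like cells Gm960 (0.66), Dmc1 (0.62) and Spata22 (0.84) were past the limit, and Gm960 was past it in second early prophase-like (0.52) and Myom3-led cells (0.66). Of all genes 6.42%, 4.73% and 8.53% were past it in these sub-clusters. The premeiotic-like class is mixed and differed between libraries, with Sycp1 at 891 CPM in WT and 1078 CPM in KO. Its median prophase score was -1.18 in WT and -0.99 in KO. Gm960 was also higher in KO granulosa-like cells, at 3.24 against 1.89 CPM. The part of either in these ratios was not tested.

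The genes whose levels ran most like each member were sought over 20 points, 10 bins of the prophase score in each library, among 9070 other genes. Zcwpw1 ran most like Inca1 (Pearson r 0.997), Fbxo47 (0.993) and Dnpep (0.993). Ankrd31 ran most like Sycp2, a protein of the chromosome axis (0.994), Phf7 (0.994) and Ccdc79 (0.993). Prdm9 ran most like Iqcb1 (0.993), Fxr2 (0.989) and 2310061I04Rik (0.988). For Spo11 the genes were Sec22a (0.979), Grb10 (0.977) and Eif3e (0.976), and for Rec114 Uqcrb (0.977), Tmem176b (0.977) and Snrpd1 (0.976). Ccdc36 ran most like Nrbp1 (0.976), Ncl (0.975) and Cinp (0.975). Mei4 had the weakest likeness, with Elovl1 (0.942), Pnpla2 (0.939) and Pafah1b3 (0.930). It was also the member with the fewest UMIs, as few as 108 in a point, and the part of counting error in r was not tested. These are descriptions over points that share 2 libraries, cell depth and the cells behind the score.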

How the data were processed

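The libraries were made by the authors from E15.5 ovaries with the 10X 3′ v3 chemistry, 1 per genotype. The deposited values are raw UMI counts per gene and cell barcode, and the matrix header names Cell Ranger 3.0.2 as the tool the authors used. The submitters' processing notes name mm10 and Seurat 3.2.3. The annotation and the handling of strand are not given in the sources used here, so overlapping genes are uncertain.

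Cells were kept by the study's limits, 1500 to 6500 genes and 5500 to 40000 UMIs in WT and 1200 to 5500 genes and 3000 to 30000 UMIs in KO, with under 10% mitochondrial UMIs. No doublets were removed. Scrublet, at an expected rate of 8%, called 2.60% of WT and 6.60% of KO cells and was an alternative. Counts were scaled, 2000 variable genes and 30 principal components were taken, and Leiden clustering with 20 neighbours was run at resolution 0.5 for all cells and 0.4 for germ-like cells (Python 3.11.15, scanpy 1.11.5, leidenalg 0.10.2, seed 1). Clusters were named from marker lists with at least 3 markers, and names may differ from the study's.

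UMIs were summed per class and library. CPM carry exact Poisson intervals, ratios exact conditional binomial intervals and shares exact Clopper-Pearson intervals. Genes that reached 100 UMIs in the groups compared were counted at a limit of 0.5 on the log2 scale. The interval and counting steps were tested on simulated Poisson counts without variation between cells, embryos or libraries, so only the handling of counting error was tested. The members, gene lists and marker lists were chosen with earlier results of these data known. Named genes were the 7 members, the break pathway genes past the limit plus the 2 most extreme in each direction over germ-like cells, the 3 genes most like each member by log2(CPM + 1) among genes with at least 1000 UMIs, and Nr3c1. Break pathway genes past the limit in single sub-clusters, and Hells, Exo1, Trip13 and Nptn, were named after their values were seen. Of the break pathway list 1 gene is not reported here. Gene positions are those of GENCODE M21 (GRCm38), and promoters those of RefSeq.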

Additional observations from a re-analysis of the deposited data

How the results depend on the processing

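No paired analysis was possible because each genotype had 1 library. No replicate could be left out for the same reason. Of 284 alternative values of the KO over WT ratios 12 changed sign, and of 280 stage differences 1 did. Shifts in size were more frequent. Counted as moved were 32 of 91 values after thinning, 26 of 87 without cells holding somatic markers, and 9 of 14 between the highest and lowest bins of the prophase score. At clustering resolution 0.8, 21 of 33 moved and 1 was reversed. With common limits on cells 9 of 87 moved, and without called doublets 1 of 87 did. Over all germ-like cells Spo11 (-0.34) moved to -0.38 with common limits on cells, -0.30 as a mean over cells and -0.19 with KO sub-clusters weighted as in WT, an alternative chosen after seeing the data. That weighting gave 0.22 for Prdm9, -0.23 for Mei4, 0.086 for Rec114, 0.13 for Ccdc36, 0.10 for Ankrd31 and 0.10 for Zcwpw1. Without mitochondrial, ribosomal protein and haemoglobin genes Prdm9 was 0.27, Ankrd31 0.027 and Zcwpw1 0.11. Without cells holding 2 or more somatic markers (3349 of 6793 in WT, 5086 of 10202 in KO) Prdm9 was 0.24, Ccdc36 0.15, Ankrd31 0.015 and Zcwpw1 0.10. Any UMI of a marker at full depth counted, so this filter also depends on the depth of a cell. Zcwpw1 was 0.13 after thinning to 3000 UMIs and 0.12 with common limits. The causes of these shifts were not tested. Leaving out the uneven-depth and somatic-marked sub-clusters, also chosen after seeing the data, moved none of the 7 ratios beyond its counting interval.

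In premeiotic-like cells the number of members past 0.5 went from 0 to 1 after thinning (Prdm9, 0.56) and to 1 without cells holding somatic markers (Mei4, -0.50). Prdm9 in advanced prophase-like cells turned from 0.84 to -0.16 at clustering resolution 0.8, where that class held 1286 WT and 975 KO cells. With the break genes kept in the clustering, the 1930 cells with Rec8, Rhox5 and Phlda2 were named meiotic entry and none premeiotic-like, so no premeiotic-like value was computed there.

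The number of genes past the limit was 1088 in germ-like cells and 602, 570, 505 and 967 from premeiotic-like to Myom3-led cells. With at least 10 UMIs it was 2999, 2624, 2528, 2582 and 3017. With a limit of 1 it was 158, 62, 61, 63 and 95, and after thinning 567, 350, 308, 287 and 636. Mei4, Ccdc36 and the 16 KO advanced prophase-like cells are limited by depth.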
